A study of Mus musculus with 30 samples.

Results

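The 82 genes described here encode cytosolic ribosomal proteins or their close paralogs, out of 20541 genes in the deposited table of nascent RNA. They were taken by symbol: names that begin with Rpl or Rps followed by a number and at most 1 of the letters A, X or L, together with Rplp0, Rplp1, Rplp2 and Rpsa. Membership rests on the symbol and on no measured value. Of the 82, 76 are standard ribosomal protein genes, 46 of the large and 30 of the small subunit, and 6 whose symbols end in L (Rpl3l, Rpl10l, Rpl32l, Rpl39l, Rps4l and Rps27l) are described apart as paralogs. Ribosomal protein genes whose symbols fall outside that pattern, such as Fau, Rack1, Rps3a1, Rpl36al, Rpl22l1 and Rpl7l1, appear below as a comparison list.

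Transcription was followed by TT-seq in mouse embryonic stem cells of the line dTKO. This method labels newly made RNA with 4-thiouridine, here 1 mM for 10 min in all groups, and sequences the labelled fraction. All groups carried the genotype Suv39h1fl/fl, Suv39h2-/-, Setdb1fl/fl, that is, floxed or deleted alleles of 3 genes for H3K9 methyltransferases, enzymes that build heterochromatin. All groups were also grown with LIF and serum on gelatin, and they differed in the time since auxin (100 µg/ml) and dTAG13 (0.5 µM) were added, which was 0, 3, 12, 24 or 48 h. These compounds trigger breakdown of proteins that carry a degron tag; which proteins are tagged, and whether the line is 1 clone, the labels do not say. The series' design text calls 0 h the baseline for the loss of the methyltransferases. Each time had 3 biological repeats, so there were 15 libraries and n = 3 for every mean below, and the 4 later times were all compared with the same 3 libraries at 0 h.

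A ribosome joins ribosomal RNA to about equal numbers of each ribosomal protein, and its protein genes are spread over the genome, so their output has to be matched. Mammalian ribosomal protein genes are highly transcribed, and their mRNAs begin with a tract of pyrimidines through which growth signals adjust translation. In stem cells, ribosome production is tied to the high rate of protein synthesis and to MYC proteins, and free ribosomal proteins such as Rpl5 and Rpl11 can bind Mdm2 and stabilise p53.

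The start sites are shown because the members moved together with few exceptions, and the 4 chosen are the exceptions Rpl39l, Rpl15 and Rpl13a and, as a highly transcribed member, Rpl41. Each stretch runs from 60 bases before to 20 bases after the start given by RefSeq on GRCm38.p6, and capitals mark a match to CTTTCC or CCGGAAG. The stretches are at chr16:10170168-10170247 (plus strand, Rpl39l), chr14:18270967-18271046 (minus strand, Rpl15), chr7:45128726-45128805 (minus strand, Rpl13a) and chr10:128549149-128549228 (minus strand, Rpl41).
Rpl39l: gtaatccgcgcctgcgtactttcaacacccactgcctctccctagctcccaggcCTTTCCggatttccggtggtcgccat
Rpl15: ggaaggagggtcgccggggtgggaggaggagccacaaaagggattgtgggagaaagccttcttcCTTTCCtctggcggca
Rpl13a: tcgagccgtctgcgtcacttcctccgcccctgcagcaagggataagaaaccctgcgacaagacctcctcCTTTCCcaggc
Rpl41: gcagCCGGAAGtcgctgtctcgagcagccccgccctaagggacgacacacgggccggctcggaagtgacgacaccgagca
The CTTTCC letters stand near the start in Rpl39l, Rpl15 and Rpl13a. In the values as deposited, Rpl39l rose at 48 h, Rpl13a fell and Rpl15 had no called change (below). RefSeq promoters, 250 bases before to 50 after the start, were at hand for 56 of the 76 genes and for 14846 genes of the table. CTTTCC, read on both strands, was in 29 of the 56 (51.8%) and in 30% of all these genes. The longer CTCTTTCC, which contains it, was in 10 (17.9%) against 3.69%. CCGGAAG, the core bound by ETS-family factors, was in 23 (41.1%) against 14.8%, and TATAAA was in 6 (10.7%) against 11%. A match is a description of these letters and not a binding site.

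Before treatment, each of the 76 genes was among the most transcribed genes of the line. In scaled reads per kilobase of gene, the mean level at 0 h ran from 262 for Rpl34 to 1844 for Rps12, with a median of 687, while the median of the 15261 genes tested was 16.7 and their 90th percentile 88.8. A scaled read is a read divided by the size factor that the authors applied to its library. All 76 lay above that 90th percentile. The medians were 672 for large-subunit and 723 for small-subunit genes. The highest levels per kilobase at 0 h were 1844 ± 115 (SD) for Rps12, 1803 ± 77.1 for Rpl41, which encodes the shortest ribosomal protein, 1624 ± 98.9 for Rplp1, a protein of the ribosomal stalk, 1526 ± 103 for Rps9 and 1492 ± 117 for Rpl3, which lies near the peptidyl transferase centre. The 3 libraries at 0 h of each of these genes overlapped those of the next in this order. Per kilobase the paralogs were lower than any of the 76, Rpl3l and Rpl32l by far, while Rpl39l, Rps27l and Rps4l still lay above that 90th percentile. GENCODE M21 lists 291 pseudogenes named after 59 of the 76 genes, with 24 for Rpl31. The treatment of reads that match several positions was not stated in the sources used here, so reads may be exchanged between a gene and its copies.

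The libraries held 16.4 to 22.9 M reads in genes (M for mega) once the ribosomal RNA precursor Rn45s was left out, and 177061 to 251881 of a library's reads fell in the 76 genes. The 76 genes took 1.13% ± 0.024 of those reads at 0 h, and at the 4 later times, in order, 1.18% ± 0.027, 1.12% ± 0.020, 1.11% ± 0.031 and 1.101% ± 0.034 (mean ± SD). Over all 15 libraries the share lay between 1.07% (48 h replicate 1) and 1.20% (3 h replicate 2). Their summed scaled reads moved more, from 185067 ± 8119 before treatment to 159459 ± 9564, 207070 ± 23066, 173487 ± 22733 and 146640 ± 8481 at the later times. The 3 libraries at 48 h (137271, 153793 and 148855) were all below the 3 at 0 h (177168, 193389 and 184644), as were the 3 at 3 h (160648, 149356 and 168372), whereas those at 12 h and 24 h overlapped them. The sum over all genes but Rn45s went from 16.3 ± 0.918 M at 0 h to 13.3 ± 0.388 M at 48 h. Each library began from 110 µg of total RNA with 1 µg of yeast RNA, so a level is relative to total RNA, and fewer cells of a type and less nascent RNA in each such cell cannot be told apart.

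**Figure D1:**
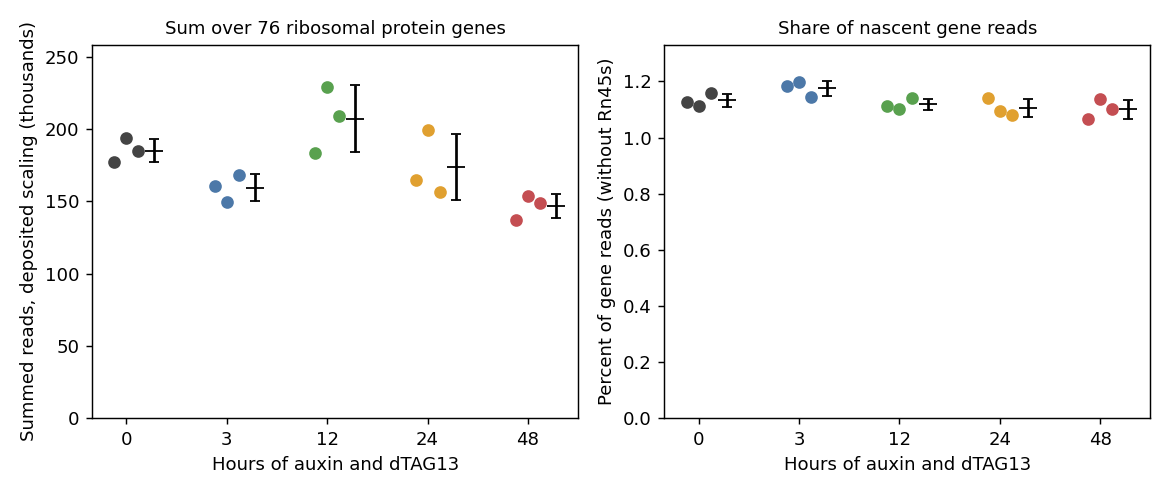
Nascent RNA of the 76 ribosomal protein genes in each library: summed scaled reads in units of 1000 (left) and percent of the reads in genes other than Rn45s (right), by hours of treatment; points are the 3 libraries of a time, bars the mean ± SD. The sum ran from 137271 to 229142 across the 15 libraries, while the share stayed between 1.07% and 1.20%.

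Genes outside the family show what else changed in these cultures. The summed scaled reads of 10 embryonic stem cell markers were 19175 to 21348 at 0 h and 12360 to 13112 at 48 h, with 9 of the 10 lower and 1 higher by limma's adjusted p, and Pou5f1, which defines these cells, was at 974 ± 29.9 and 461 ± 23.9. For 7 markers of 2-cell-like cells the sums were 34.1 to 43.7 and 1350.0 to 1603, and all 5 tested rose. Fibroblast markers summed to 285 to 359 and 390 to 545 (5 of 6 tested rose, 1 fell), trophectoderm markers to 527 to 551 and 797 to 1002 (2 of 4 rose, 2 fell), and primitive endoderm markers to 414 to 454 and 449 to 509 (0 of 4 passed, and 3 were higher after rescaling). Over all genes tested at 48 h, 7.65% rose and 58.4% fell, and 29.8% were higher after rescaling. None of these markers was at 0 throughout. The part of these shifts in the changes below was not tested. In the authors' deposited table all 82 members are marked unchanged at all 4 times, while 571 genes are marked up and 1031 down at 48 h.

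At the first 3 times no ribosomal protein gene of the 76 passed the test on the deposited scaling. The test was limma on log2(value + 1) over all 15 libraries, with Benjamini-Hochberg adjusted p under 0.05 over the 15261 genes whose mean reached 10. At 3 h, 0 of 76 passed, while 14.1% of all genes tested did; the median log2 change was -0.21 against -0.24 over all genes, and 13 genes were lower at an unadjusted p under 0.05, as were 5626 of all 15261. In 67 of the 76 the 3 libraries at 3 h were nevertheless all below those at 0 h, as in 53.5% of all genes. At 12 h, 0 of 76 passed against 15% of all genes, with medians of 0.15 and 0.18; 5 genes were higher at an unadjusted p under 0.05, and 4255 of all genes were. In 6 of the 76, and in 23.9% of all genes, the libraries at 12 h lay above those at 0 h. At 24 h, 0 of 76 passed against 19.4% of all genes, with medians of -0.09 and -0.08; 2 genes were lower at an unadjusted p under 0.05, and 2883 of all genes were. The edgeR test on reads recovered from the same scaling also called 0 of the 76 at each of these times. Single libraries decided 2 of these counts: 7 genes (9.21%) were called higher at 12 h without 12 h replicate 1, where 34.5% of all genes were, and 17 (22.4%) lower at 24 h without 24 h replicate 2, where 26.5% of all genes were. At 3 h the fit on the 2 groups compared alone called 21 of the 76 (27.6%), all lower, and 39.5% of all genes lower.

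At 48 h the family was lower as a body. Of the 76 genes, 61 fell and 0 rose, 38 of 46 in the large and 23 of 30 in the small subunit, while 58.4% of all genes tested fell and 66% passed in either direction. The median log2 change was -0.34 against -0.37 over all genes, and the change of each of the 76 was below 0. For 73 of the 76, all 3 libraries at 48 h were below all 3 at 0 h, as they were for 69.6% of all genes. The count fell to 28 (36.8%) without 48 h replicate 1, where 46.1% of all genes fell, and to 38 (50%) without 0 h replicate 2, where 45.8% did. Among the 15 genes that did not pass were Rpl9, Rpl15, Rpl24, Rpl27, Rpl32, Rpl37, Rpl38, Rpl41, Rps14, Rps15a, Rps20, Rps23, Rps27 and Rps28.

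The changes of the 76 genes lay close together. At 3, 12, 24 and 48 h the middle 50% of their log2 changes spanned 0.04, 0.08, 0.08 and 0.12, against 0.17, 0.24, 0.30 and 0.44 over all genes tested. Among the 8147 genes with at least the lowest mean of the 76 (257 scaled reads), the spans were 0.12, 0.16, 0.22 and 0.32. The median coefficient of variation between the 3 libraries of a time was 8.43% for the 76, 10.2% for all genes and 9.34% for those 8147. These are descriptions and were not tested. The 3 genes with the smallest variation over all 15 libraries were Rpl32 (10.7%), Rpl35 (10.7%) and the paralog Rps27l (11.1%), and the 3 with the largest were Rpl10l (33.2%), Rpl32l (31.9%) and Rpl13a (20.7%).

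Because most genes shifted with the library, the values were also rescaled so that the median gene had the same level in each library (median of ratios, factors 0.798 to 1.37). On that scale a change is relative to the median gene, which had been at -0.24, 0.18, -0.08 and -0.37 at the 4 times. The median change of the 76 was then 0.03, -0.04, -0.01 and 0.03 at these times. None passed at 3 h (13.1% of all genes did), and 0 were called by edgeR with TMM scaling. At an unadjusted p under 0.05, 4 of the 76 were higher and 1 lower at 3 h, as were 1638 and 2142 of all 15261 genes. At 12 h 7 of the 76 passed, against 30.6% of all genes (15.8% higher, 14.9% lower), and at 24 h 19 passed, against 43.5% (21.7% higher, 21.8% lower). The count was 26 at 48 h, against 58.8%. The 26 at 48 h divide into 17 higher and 9 lower genes, while 29.8% of all genes were higher and 29% lower. All 3 libraries at 48 h lay above those at 0 h in 23 of the 76 (31.9% of all genes) and below them in 11 (31.5%). The same genes fell under the deposited scaling and after rescaling in 9 cases, and in 3 cases a gene that fell was higher than the median gene. The within-time coefficient of variation came to 3.15% for the 76, 5.21% for all genes and 3.31% for the 8147 genes with at least the lowest mean of the 76. Over all 15 libraries it was 4.39%, 11.1% and 7.17%. The median of the gene means was 2146 scaled reads for the 76 and 975 for the 8147, so these sets are not matched for level.

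**Figure D2:**
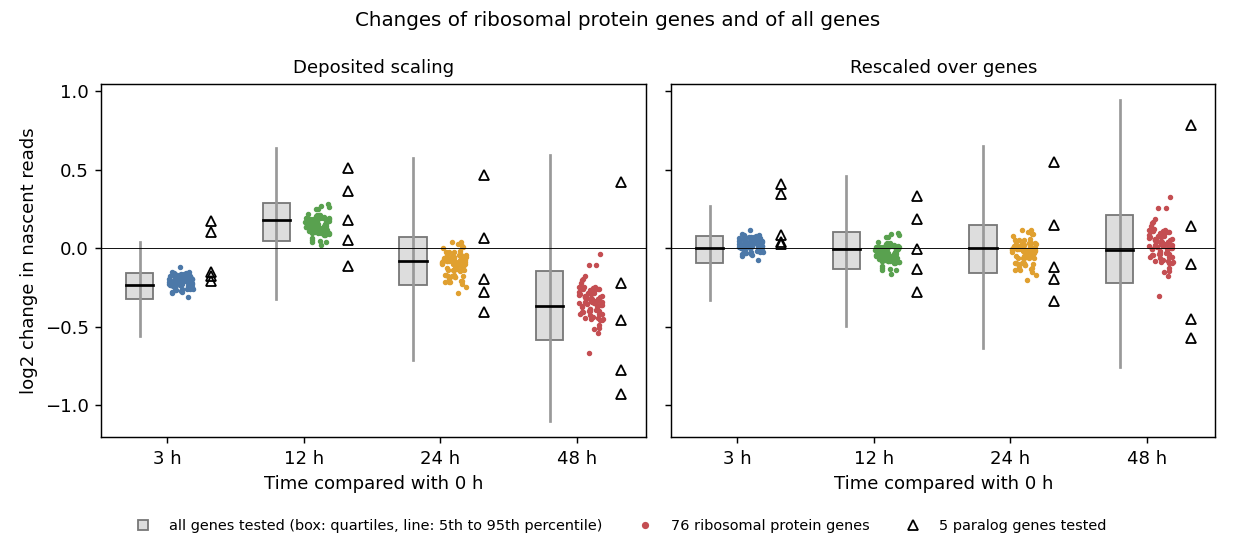
Log2 change against 0 h at each later time on the deposited scaling (left) and after rescaling over genes (right); grey boxes show the quartiles and lines the 5th to 95th percentiles of all 15261 genes tested, dots the 76 ribosomal protein genes and triangles the 5 paralogs tested. At 48 h the dots centre at -0.34 on the deposited scaling and at 0.03 after rescaling, with quartiles 0.12 apart against 0.44 for all genes, and the highest triangle is Rpl39l.

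At 12 h after rescaling, the single higher gene was Rpl4 (0.10), and the 6 lower ones were Rps29 (-0.16), Rps23 (-0.14), Rplp1 (-0.14), Rpl39 (-0.13), Rplp0 (-0.13) and Rpl22 (-0.09). At 24 h 16 of the 19 were lower, led by Rps29 (-0.20) and Rpl30 (-0.17), and the 3 higher ones were Rpl15 (0.12), Rpl32 (0.11) and Rpl7a (0.10). Rpl4, Rpl7a, Rpl30, Rpl39 and Rplp0 were named here after their values were seen. These times share the libraries at 0 h, so the lists are not independent. Without 0 h replicate 3 the calls came to 2 at 12 h and 10 at 24 h, and 2 genes were then called at 3 h. Without 12 h replicate 2 the 12 h calls came to 2, and without 24 h replicate 3 the 24 h calls came to 12.

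The genes that kept up best at 48 h were Rps20, Rpl15, Rpl32 and Rps23. Rps20, a protein of the small subunit's head, had 3035, 3260 and 3102 scaled reads at 0 h and 2926, 3224 and 3031 at 48 h. Those 2 groups overlap, and the log2 change was -0.03 ± 0.12 (SE, limma adjusted p = 0.815). After rescaling its values were 2923, 2873 and 2954 at 0 h and 3664, 3752 and 3581 at 48 h, which do not overlap, and the change was 0.33 ± 0.04 (adjusted p = 1.37e-07). Rpl32, a large-subunit protein, had 2093, 2247 and 2124 scaled reads at 0 h and 1877, 2130 and 2004 at 48 h, again with overlap. Its change was -0.11 ± 0.12 (adjusted p = 0.444), and 0.26 ± 0.04 after rescaling (adjusted p = 1.32e-06). Rps23, which lies at the decoding centre, had 1638, 1698 and 1715 scaled reads at 0 h and 1377, 1611 and 1486 at 48 h, all lower than at 0 h. Its change was -0.18 ± 0.12 (adjusted p = 0.194) on the deposited scaling and, with the sign turned, 0.19 ± 0.04 after rescaling (adjusted p = 0.00059). Relative to the median gene, Rps23 had been lower at 12 h (-0.14, adjusted p = 0.0151) and 24 h (-0.13, adjusted p = 0.0148). The other 13 higher genes after rescaling had changes of 0.08 (Rpsa) to 0.17 (Rps15a). Rpl41 was among them at 0.12 and no longer passed in 3 of the 6 fits that left out 1 library.

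The genes that fell most were Rpl13a, Rpl22 and Rps29, under both scalings. Rpl13a, a large-subunit protein that can also be released from the ribosome, had 3530, 3771 and 3613 scaled reads at 0 h and 2083, 2422 and 2390 at 48 h. The 3 later libraries were all below the earlier ones, and the change was -0.66 ± 0.12 (adjusted p = 4.88e-07), and -0.30 ± 0.04 after rescaling (adjusted p = 3.78e-08). Its 12 h libraries (3356, 4442 and 4365) overlapped those at 0 h. Rpl22, whose paralog is Rpl22l1, fell from 3153 ± 137 to 2173 ± 65.4, a change of -0.54 ± 0.12 (adjusted p = 5.6e-05; -0.17 after rescaling). Rps29, a zinc-binding protein of the small subunit, fell from 1145 ± 75.3 to 801.7 ± 39.4, a change of -0.51 ± 0.13 (adjusted p = 0.000158; -0.15 after rescaling). In Rps29 the rescaled change was as large at 12 h (-0.16) and 24 h (-0.20), and its 48 h call after rescaling was lost without 0 h replicate 3. The other 6 lower genes after rescaling were Rpl14, Rps13, Rps19, Rpl10a, Rplp2 and Rps3, with changes of -0.14 to -0.08. Of the 5 genes with the highest levels per kilobase, Rpl41 passed after rescaling (0.12), and Rps12 (0.00), Rplp1 (-0.03), Rpl3 (-0.02) and Rps9 (-0.08) did not.

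**Figure D3:**
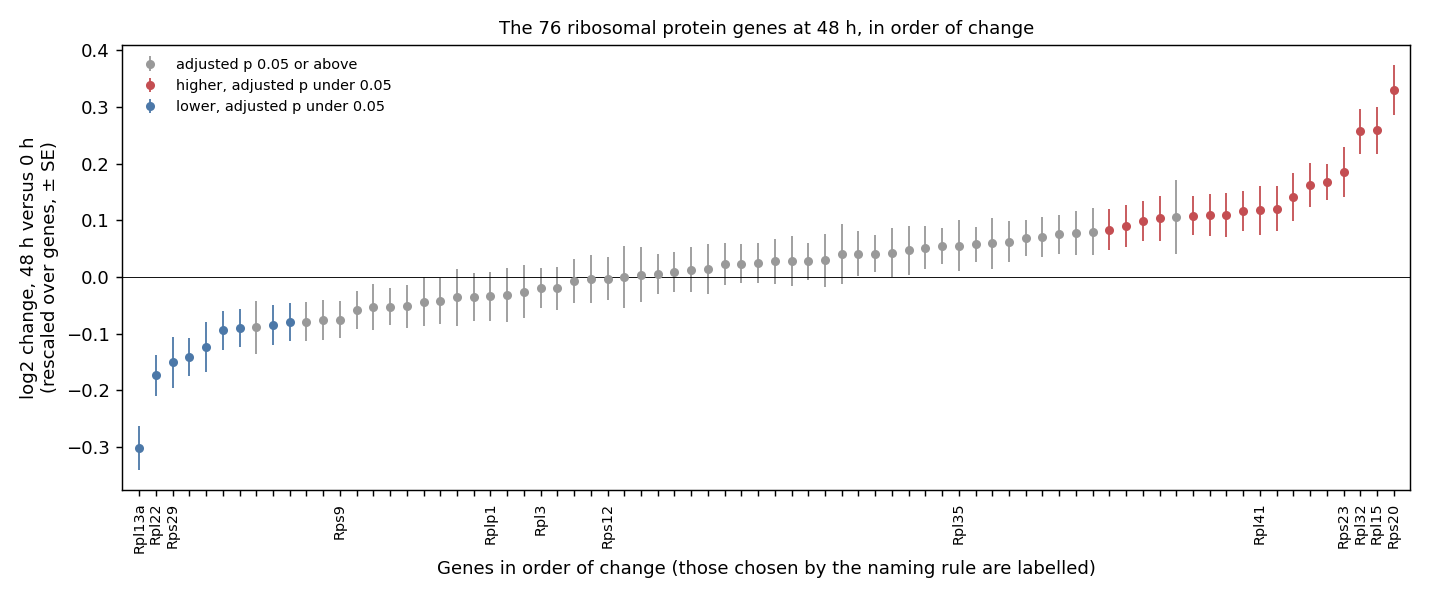
Log2 change at 48 h against 0 h after rescaling over genes, with its standard error, for the 76 ribosomal protein genes in order, with those chosen by the naming rule labelled; red points were higher and blue points lower at an adjusted p under 0.05, and grey points did not pass. The order runs from Rpl13a at -0.30 to Rps20 at 0.33, with 50 genes in grey.

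Several ribosomal protein genes carry small nucleolar RNAs in their introns, which guide modification of ribosomal RNA. Rpl13a hosts 4 of them, and each fell with it: Snord32a went from 145 ± 6.49 to 90.7 ± 9.76 scaled reads at 48 h, and the changes of Snord32a, Snord33, Snord34 and Snord35a were -0.67, -0.68, -0.72 and -0.60. The table counts 30 such snoRNA units inside 21 of the 76 genes. At 48 h on the deposited scaling 24 of the 30 fell and 0 rose, with a median change of -0.40, while 58.4% of all genes fell. After rescaling 7 of the 30 passed, against 58.8% of all genes in either direction. The median difference from the host's own change, taken after rescaling, was -0.03, with a range of -0.41 to 0.19. In nascent RNA these units share the host's transcript, so the 2 readings are not independent.

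Rpl15, a large-subunit protein gene at chr14:18267823-18270986 on the minus strand, stands out for what lies across from it. Its own scaled reads were 2118, 2312 and 2329 at 0 h and 1941, 2213 and 2138 at 48 h. These overlap, and the change was -0.10 ± 0.12 (adjusted p = 0.452), or 0.26 ± 0.04 after rescaling (adjusted p = 2.7e-06). A non-coding unit on the plus strand at chr14:18254001-18268801 overlaps the last 979 bases of Rpl15. That unit had 19.5, 13.3 and 25.7 scaled reads at 0 h and 748, 845 and 820 at 48 h, with no overlap, a log2 change of 5.34 ± 0.19 by limma over the 15730 non-coding units tested. In between, its means at 3, 12 and 24 h were 22.1 ± 7.31, 140 ± 5.57 and 675 ± 115. The strand setting of the authors' counting was not stated, and the part of these reads in the value of Rpl15 was not tested. Across the 76 genes, 26 non-coding units lie opposite 23 of them, 16 of the units were tested, and the unit opposite Rpl15 was the single 1 that rose at 48 h, while 10 fell. Among all non-coding units tested, 29.3% rose and 39.4% fell.

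**Figure D4:**
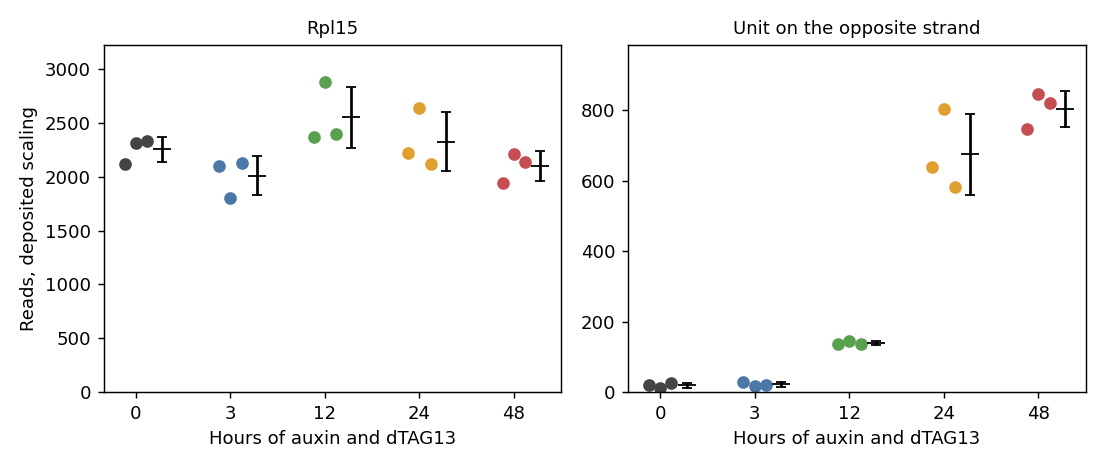
Scaled reads of Rpl15 (left) and of the non-coding unit on the opposite strand that overlaps its 3' end (right) in each library, by hours of treatment; points are the 3 libraries of a time, bars the mean ± SD. The unit goes from 19.5 at 0 h to 804.4 at 48 h on average, while Rpl15 goes from 2253 to 2097.

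Of the 5 paralogs tested at 48 h on the deposited scaling, 3 fell (Rpl10l, Rpl32l and Rps4l), Rpl39l rose and Rps27l did not pass. Rpl39l, which replaces Rpl39 in ribosomes of male germ cells, was the single member that rose. Its scaled reads were 713, 719 and 772 at 0 h and 760, 742 and 875 at 3 h. They were 1002 (replicate 1), 1161 and 991 at 12 h, then 983, 1160 and 922 a day into treatment, and 919, 1012 and 1021 at 48 h. From 12 h on, every library was above all 3 at 0 h. The log2 changes were 0.51 ± 0.13 at 12 h (adjusted p = 0.000886), 0.47 ± 0.13 at 24 h (adjusted p = 0.00189) and 0.42 ± 0.13 at 48 h (adjusted p = 0.00203), times at which 12.9%, 7.21% and 7.65% of all genes rose. After rescaling the changes at 3, 12 and 24 h were 0.34, 0.33 and 0.55, all past the threshold. The change at 48 h was 0.78 ± 0.05 (adjusted p = 5.6e-15), and it stayed between 0.73 and 0.84 when any 1 library was left out. Its X-linked relative Rpl39 went from 1560 ± 56.9 to 1226 ± 76.7, a change of -0.35 ± 0.12 (adjusted p = 0.00976), and was at 0.01 after rescaling. Per kilobase, Rpl39l stood at 157 ± 6.90 and Rpl39 at 577 ± 21.1 at 0 h, and at 210 ± 12.0 and 453 ± 28.4 at 48 h.

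The coding sequences of Rpl39 and Rpl39l are shown because reading the rise of Rpl39l depends in part on how far the genes differ. Both are 156 bases long in GENCODE M21 on GRCm38, and capitals mark the 23 positions at which they differ.
Rpl39: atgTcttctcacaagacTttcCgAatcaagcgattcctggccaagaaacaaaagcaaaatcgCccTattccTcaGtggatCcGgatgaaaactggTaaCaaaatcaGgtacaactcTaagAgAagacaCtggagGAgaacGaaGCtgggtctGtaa
Rpl39l: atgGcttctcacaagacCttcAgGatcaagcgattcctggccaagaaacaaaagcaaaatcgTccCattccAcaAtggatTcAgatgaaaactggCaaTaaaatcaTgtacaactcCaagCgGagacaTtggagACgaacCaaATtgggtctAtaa
The longest run without a difference is 38 bases and the identity is 85.3%. Both figures cover the coding bases alone, which are a small part of the span of Rpl39l given below. At 48 h on the deposited scaling Rpl39l rose and Rpl39 fell, whereas after rescaling Rpl39 was at 0.01 and did not pass; exchange of reads between the 2 genes was not tested. Downstream of Rpl39l, which lies at chr16:10170228-10174911 on the plus strand, 2 other units were higher: a copy of the repeat MMERVK10D3_I-int at chr16:10181746-10186526 on the same strand went from 6.64 ± 2.03 to 25.9 ± 7.83 scaled reads at 48 h, and a non-coding unit on the minus strand at chr16:10192201-10227601 went from 151 ± 15.5 to 460 ± 24.8. The repeat starts 6834 bases after the gene's end. Atf7ip2, the next gene on the same strand, went from 2270 ± 121 to 2412 ± 44.8. Whether any of these has a part in the change of Rpl39l was not tested.

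Rpl10l, an intronless copy of the X-linked Rpl10 that serves male meiosis, moved the other way at 48 h. At 3 h after rescaling it was higher, as Rpl39l was. Its rescaled values went from 61.1, 96.0 and 100.4 to 119.0, 102.1 and 114.6, a change of 0.41. Of the 5 paralogs tested, 2 passed there, both higher, while 4.98% of all genes were higher. On the deposited scaling Rpl10l had 63.4, 109 and 105 scaled reads at 0 h and 42.8, 53.5 and 45.1 at 48 h, all lower. At 12 h in between it had 94.7, 134 and 124. The change at 48 h was -0.93 ± 0.16 (adjusted p = 8.87e-08), and -0.57 ± 0.13 after rescaling (adjusted p = 0.000523), where the libraries at 48 h overlapped those at 0 h. Rpl10 itself changed by -0.33 ± 0.12 (adjusted p = 0.0139), and by 0.03 after rescaling. The coding sequences of Rpl10 and Rpl10l have 84.8% identity over 645 bases, with a longest shared run of 23 bases. A non-coding unit on the plus strand at chr12:66284201-66285801 overlaps the start of Rpl10l, and it was lower as well, from 64.1 ± 3.62 to 29.6 ± 2.49.

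Rpl32l and Rps4l are processed pseudogenes in GENCODE M21, and their values belong to places where other units overlap them. Rpl32l (chr10:20208439-20209030) lies inside Map7 on the same strand and had 10.6, 13.3 and 14.6 scaled reads at 0 h and 6.65, 6.20 and 8.41 at 48 h. The change was -0.77 ± 0.33 (adjusted p = 0.0291), it did not pass after rescaling (-0.45, adjusted p = 0.186) or in 4 of the 6 fits without 1 library, and Map7 changed by -0.89. Its sequence matches the coding sequence of Rpl32 at 96.0% of positions, with a shared run of 94 bases, and exchange of reads within the pair was not tested. Rps4l (chr6:148354656-148355596) lies inside a non-coding unit on the same strand and opposite the gene Tmtc1. It had 168, 162 and 210 scaled reads at 0 h and 123, 138 and 129 at 48 h, a change of -0.46 ± 0.14 (adjusted p = 0.00265), beside -0.41 for the unit around it. After rescaling it was at -0.10 and did not pass.

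Rps27l, a target of p53 with a coding sequence 76.1% identical to that of Rps27, had 533, 578 and 624 scaled reads at 0 h and 504, 504 and 477 at 48 h. The change was -0.22 ± 0.13 (adjusted p = 0.114), and 0.14 ± 0.06 after rescaling (adjusted p = 0.0553), so it did not pass on either scale. Per kilobase it stood at 168 ± 13.2 at 0 h, against 268.9 ± 5.60 for Rps27. Rpl3l, the heart and skeletal muscle form of Rpl3, was near the bottom of the table, with 4.06, 3.33 and 6.86 scaled reads at 0 h and 5.17, 6.97 and 7.64 at 48 h, and was not tested. Counts of overlapping copies limit 4 of the standard genes in the same way: Gm15772, Gm12191, Rpl34-ps1 and Rps27rt are listed on the same strand over Rpl26, Rpl30, Rpl34 and Rps27, and Rps27rt and Rps27 had the same mean at 0 h (264 ± 5.49).

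**Figure D5:**
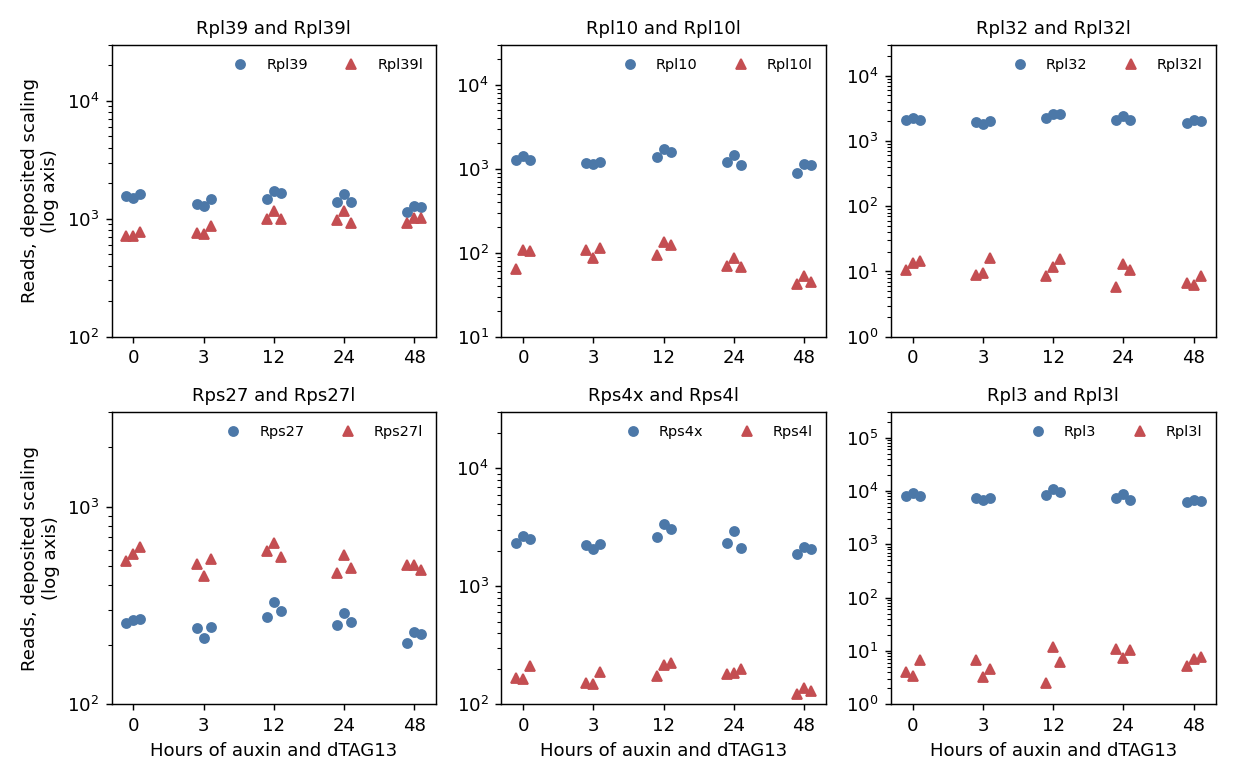
Scaled reads, on a log axis, of each paralog (triangles) and of its standard relative (circles) in the 3 libraries of each time. Rpl39l climbs from 713 to 772 at 0 h to 919 to 1021 at 48 h while Rpl39 declines to 1138 to 1279, Rpl10l and Rpl32l end below their levels at 0 h, and Rpl3l stays under 12 scaled reads.

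Other genes of ribosome production and translation were counted by lists, with the 3 genes of smallest adjusted p as examples. Over all genes tested at 48 h, 58.4% fell and 7.65% rose, and after rescaling 29% were lower and 29.8% higher. The 7 ribosomal proteins outside the naming pattern all fell at 48 h, with a median change of -0.38. Among them were Fau (-0.27), Rack1 (-0.30), a scaffold on the small subunit, Rps3a1 (-0.38), Rpl36al (-0.29), Rpl22l1 (-0.46) and Rpl7l1 (-0.48). After rescaling 1 of them, Rpl7l1, was lower (-0.12) and 0 were higher. Of 39 translation factors, 35 fell and 0 rose, with a median of -0.40, and after rescaling 5 were higher and 14 lower. The initiation factor subunits Eif3k (-0.75) and Eif3l (-0.71) and the elongation factor subunit Eef1d (-0.68) had the smallest adjusted p. Of 50 ribosome assembly factors, all 50 fell, with a median of -0.55, and after rescaling 40 were lower and 0 higher. Rrp9, a protein of the U3 particle that cuts pre-rRNA, went from 425 ± 7.60 to 205 ± 24.8 (-1.06), Noc2l from 1092 ± 70.3 to 554 ± 61.1 (-0.98) and Mybbp1a, a nucleolar protein, from 2705 ± 253 to 1545 ± 104 (-0.81).

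All 15 genes of RNA polymerase I and its factors fell, with a median of -0.60, and after rescaling 10 were lower and 1 higher. The subunits Polr1c (-0.80) and Polr1b (-0.74) and Ubtf (-0.66), which opens ribosomal DNA for transcription, led them. Of 12 snoRNA host RNAs tested, 11 fell, with a median of -0.61, and after rescaling 8 were lower and 1 higher; Snhg5 went from 2274 ± 140 to 1400.5 ± 81.4. For the separate ribosome of mitochondria, 67 of 77 protein genes fell, with a median of -0.51, and after rescaling 37 were lower and 4 higher. Beside these medians, that of the 76 was -0.34 and that of all genes -0.37, and 9 of the 76 were lower after rescaling. Among all genes tested, 58.4% fell, and after rescaling 29% were lower and 29.8% higher. Differences between the lists were not tested.

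Regulators and reference genes were counted in the same way, beside 58.4% of all genes that fell and 7.65% that rose at 48 h. After rescaling those shares were 29% lower and 29.8% higher. Of 18 growth control genes, 15 fell and 0 rose at 48 h, with 3 higher and 8 lower after rescaling. Mycn, the MYC family member prominent in embryonic cells, went from 1826 ± 42.5 to 707 ± 8.32 (-1.37), Myc from 203 ± 2.97 to 128 ± 7.01 (-0.66) and Tsc2, an inhibitor of mTORC1, from 608 ± 57.7 to 412 ± 32.4 (-0.56). Of 16 p53 targets, 4 rose and 5 fell, and after rescaling 10 were higher and 1 lower. Btg2, which slows proliferation, went from 459 ± 10.4 to 618 ± 29.3 (0.43). Of 13 common reference genes, 10 fell and 0 rose, and after rescaling 3 were higher and 5 lower; Gapdh changed by -0.60. The middle 50% of the reference genes' changes at 48 h spanned 0.27 on the log2 scale, against 0.12 for the 76. Closer to the 76 were the 7 other ribosomal proteins (0.14), the growth control genes (0.15) and the translation factors (0.16). At 3 h the reference genes spanned 0.05 and the 7 other ribosomal proteins 0.03, against 0.04 for the 76. Of 37 proteasome genes tested, 31 fell and 0 rose, with a median of -0.42, and after rescaling 5 were higher and 13 lower.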

How the data were processed

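The tools listed in the submitters' processing notes are STAR 2.5.2a, DESeq2 and deepTools, and the build is GRCm38 (mm10). The deposited values are signal: reads per unit that the authors divided by 1 size factor per library, which gives steps of 0.636 to 0.936 per read; whole reads were recovered from them within a tolerance of 0.05. The design text names a yeast spike-in, and whether the size factors rest on it is not shown by the file. The authors' calls are labels in a deposited table, beside per-kilobase signal averages. No source used here names the counter, its strand setting or the annotation. The 30 GEO samples are 15 libraries sequenced in 2 runs each; 0 per-sample columns were left unmapped.

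Changes were fitted on log2(value + 1) in R 4.3.3 by limma 3.58.1, with its prior following mean intensity, for genes with a mean of at least 10, adjusted by Benjamini-Hochberg over 15261 genes; fold changes are on that scale. Alternatives were edgeR 4.0.16 on recovered reads (size factors as deposited, or TMM), rescaling over genes, no filter or a mean of at least 50, a pseudocount of 5, no trend, a replicate block, the 2 groups alone, and leaving out each library. The script was tested on simulated data. Membership follows the symbols, but the family and the lists were chosen for description with earlier results of these data known. Named genes were the 5 highest and 5 lowest changes at 48 h, the 5 highest and lowest levels per kilobase, the 3 smallest and largest coefficients of variation over 15 libraries, members called against the majority, and all paralogs; in each list, the 3 genes with the smallest adjusted p at 48 h. Exceptions are named in the text. The labels call the repeats biological. Counting limits the precision of low members such as Rpl32l and Rpl3l. Single values of some genes are not reported here.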

Additional observations from a re-analysis of the deposited data

Results flagged for a closer look

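The non-coding unit opposite the 3' end of Rpl15, at chr14:18254001-18268801, was at 804.4 scaled reads on average at 48 h, and it was picked out because it is signal outside the gene measurements that lay far above its level at 0 h (19.5 ± 6.20). It was higher in 3 of 3 libraries at 12, 24 and 48 h than in any library at 0 h.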

How the results depend on the processing

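Rescaling over genes left the count at 3 h at 0. Called genes among the 76 at 12, 24 and 48 h went from 0, 0 and 61 to 7 (1 higher, 6 lower), 19 (3 higher, 16 lower) and 26 (17 higher, 9 lower), and edgeR with TMM scaling gave 9, 17 and 27 (15 higher, 12 lower). The median change at 3, 12 and 48 h went to 0.0295, -0.0351 and 0.0260, and the median within-time coefficient of variation from 8.43% to 3.15%. Named members that turned sign at 48 h were Rpl15 (0.26), Rpl32 (0.26), Rpl35 (0.055), Rpl41 (0.12), Rps20 (0.33), Rps23 (0.19) and Rps27l (0.14). The scale is built so that the median gene has no change. What lies behind the change in the counts was not tested.

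Leaving out 1 library gave 0 called genes in all 6 fits at 3 h and, at 12, 24 and 48 h, 0 to 7, 0 to 17 and 28 to 58; after rescaling it gave 0 to 2 at 3 h and 2 to 10, 10 to 15 and 18 to 25 at the later times. The median change ranged from -0.25 to -0.16, 0.07 to 0.23, -0.19 to -0.03 and -0.38 to -0.29 at the 4 times. The fit on the 2 groups alone called 21 genes at 3 h; the cause was not tested. With the replicate number as a block, the calls at 3, 12, 24 and 48 h were 1, 0, 0 and 67. Whether the replicate numbers pair the libraries was not settled. Over 30 same-numbered pairs the correlation of deviations over genes ran from -0.04 to 0.08, and 10 of 15 libraries correlated best with their own number. A shift shared by all genes of a library does not enter that correlation. Replicate 2 had the highest rescaling factor at 0, 12, 24 and 48 h (1.13, 1.37, 1.19 and 0.859). At 3 h it had the lowest (0.841). The filter, the pseudocount, the trend setting and edgeR on the deposited size factors kept each count within 1.5 times.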
